A study of Homo sapiens with 16 samples.

Results

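The early response to bortezomib was measured on 8 of the 16 arrays of the series, which are all those whose labels give 6 h as the time. Of these, 4 held RNA of cells incubated with 10 nM bortezomib for 6 h and 4 held RNA of untreated cells of the same time, and the labels do not say whether the untreated cells received a vehicle. For each treatment there were 2 biological replicates of LP-1-cIAP2-eGFP, and 2 of its control, LP-1-eGFP. LP-1 was derived from a patient's multiple myeloma and has no intact TRAF3 gene. A lentiviral pIRES2 vector had been introduced into either line, followed by sorting on eGFP, and it carried cIAP2, the product of BIRC3, beside eGFP in the first and eGFP alone in the second. RNA was hybridized to Agilent single-colour arrays of 50599 gene probes. The lines were analysed together with the line as a covariate, and the other 8 arrays, taken at 24 h, were used only where stated.

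Bortezomib is a reversible inhibitor that binds the chymotrypsin-like active site of the 20S proteasome, carried by the subunit PSMB5. When the proteasome is blocked, ubiquitinated and misfolded proteins build up, and cells are known to answer through the transcription factors HSF1 (heat shock genes), NFE2L1 (proteasome subunits), NFE2L2 or NRF2 (antioxidant genes) and ATF4 (amino acid supply and the CHOP pathway), and through the unfolded protein response of the endoplasmic reticulum (ER). Myeloma cells secrete large amounts of immunoglobulin, and proteasome inhibitors are a standard treatment of the disease. The arrays bore the marks of plasma cells: of 10 plasma cell marker genes, 9 were well above background on all 8 arrays. Of 6 markers of mature B cells, 2 were detected on all 8 arrays and 4 on none, and of 5 fibroblast markers none was detected on all 8, nor was any of 5 monocyte and macrophage markers. Of 5 epithelial markers 2 were, KRT8 and KRT18, and so was 1 each of the T cell and granulocyte markers, CD8A and CSF3R.

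The median log2 signal of the 8 arrays lay between 5.80 and 6.64 and between 49.0% and 71.1% of their gene spots were well above background, fewest on bortezomib replicate 1 of LP-1-cIAP2-eGFP. Replicates of a condition correlated across probes with r from 0.976 to 0.990. The largest component of variation among the 8 arrays (39.8% of the variance) separated the lines and the second (21.5%) separated bortezomib from untreated. The arrays lay on 2 slides, each with 2 bortezomib and 2 untreated arrays of 6 h, but with the lines unequally divided between them. The number of arrays limits the precision, and p-values measure the spread between these cultures.

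A probe was called when its Benjamini-Hochberg adjusted p in limma was under 0.05 and its change was over 2-fold. Of 32041 probes tested, 755 (2.36%) were called at 6 h, 434 higher (1.35%) and 321 lower (1%) with bortezomib. By adjusted p alone, without the fold limit, 2478 probes (7.73%) were higher and 3330 (10.4%) lower. Hence the rises were the larger changes and the falls the more numerous small ones. Rises exceeded 4-fold for 84 of the called probes and 8-fold for 21, while 9 falls exceeded 4-fold and none 8-fold. The called falls also lay nearer to background: 144 of the 321 were well above background on all 8 arrays, compared with 340 of the 434 rises. When only probes above background on all 8 arrays were tested, 357 rises and 145 falls were called, and after another background correction (normexp) there were 283 and 74. Taking 1 probe per gene, the brightest, 414 of 15914 genes (2.6%) were called, 255 (1.6%) higher and 159 (0.999%) lower, and the median change of all genes was -0.03 on the log2 scale. The 4 bortezomib arrays lay all above or all below the 4 untreated arrays for 21.4% of genes, called or not. All 755 called probes changed in the same direction in both lines. Because the lines are unequally divided, a comparison within a slide also carries a difference between lines. Within slide 1, 428 of the 434 rises and 318 of the 321 falls had the same sign, and within slide 2, 432 and 317. These counts and the agreement between the lines follow in part from how the probes were called, on the same 8 arrays. Because the cultures were measured in bulk, fewer cells expressing a gene and less RNA per cell cannot be told apart.

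**Figure D1:**
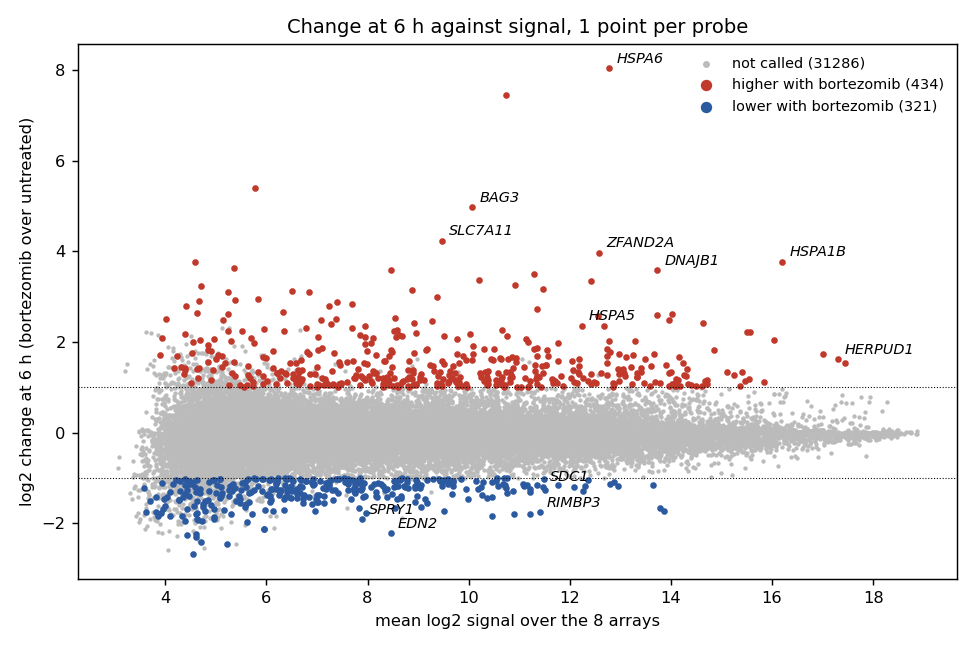
Log2 change with bortezomib at 6 h (vertical axis, both lines) against the mean log2 signal of the 8 arrays (horizontal axis), with 1 point for each of 32041 probes and dotted lines at 2-fold. Called rises (434) are red and called falls (321) blue. The rises reach 8.03 for HSPA6, while the falls end below -2 and lie mostly at low signal.

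The largest rise was that of a cytosolic chaperone gene. Of 12 genes of the HSP70 and HSP110 family, which fold proteins and hold unfolded ones in solution, 8 were called higher and none lower, against 1.6% and 0.999% of all genes, with a median change of 1.54 on the log2 scale against -0.03 for all genes. HSPA6 encodes a strictly inducible HSP70. Its log2 signal was 8.56 and 8.61 in untreated LP-1-eGFP, 8.85 and 9.04 in untreated LP-1-cIAP2-eGFP, 17.44 and 17.48 in LP-1-eGFP with bortezomib, and 16.33 and 15.95 in LP-1-cIAP2-eGFP with bortezomib. All bortezomib arrays lay far above all untreated ones, and the change was 8.03 (log2, standard error 0.347, adjusted p = 2.72e-04, limma). A second HSPA6 probe changed by 7.46. HSPA1B, another inducible HSP70, lay between 14.02 and 14.81 on the untreated arrays and between 17.98 and 18.15 with bortezomib, a change of 3.77 (standard error 0.170, adjusted p = 3.05e-04). HSPA1A was well above background on all 4 bortezomib arrays and on none of the untreated ones, so that it is counted among the 8 only through the arrays where it is high. With the untreated arrays set to the lowest signal above background it was 3.54-fold higher. This is not a strict lower bound, and the change of HSPA1A was 1.37 on the log2 scale with normexp. HSPA1A and HSPA1B are near-identical copies, so that their probes may share RNA. HSPH1, a nucleotide exchange factor of the HSP110 group, rose by 2.23, HSPA12A by 1.77 (1.12 with normexp) and HSPA4L by 1.62.

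Some partners of HSP70 also rose. In a list of 35 HSP40, HSP90, small HSP, BAG and chaperonin genes, 8 were called higher (22.9%) and none lower, against 1.6% and 0.999% of all genes, and 22 had an adjusted p under 0.05 in the upward direction (9.63% of all genes), with a median of 0.67. BAG3 links HSP70 to the autophagic removal of proteins. On the untreated arrays its log2 signal was 7.61, 7.46, 7.69 and 7.60, and with bortezomib it was 13.01 and 13.02 in LP-1-eGFP and 12.20 and 12.01 in LP-1-cIAP2-eGFP. The groups did not overlap, and the change was 4.97 (standard error 0.214, adjusted p = 2.72e-04, limma). DNAJB1, an HSP40 that hands clients to HSP70, rose from between 11.78 and 12.09 to between 15.12 and 15.84, by 3.58 (standard error 0.173). The other HSP40 genes called with it were DNAJB4 at 1.80, DNAJB6 and DNAJA1 at 1.16 each, and CHORDC1, a co-chaperone of HSP90, rose by 1.68. DRICH1, in none of the lists, rose by 3.37 (standard error 0.102). ZFAND2A, which encodes a proteasome-associated zinc finger protein induced by stress, had one of the largest rises outside the chaperones. It lay between 10.47 and 10.78 untreated and between 14.20 and 14.93 with bortezomib, a change of 3.97 (standard error 0.194, adjusted p = 3.35e-04).

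HSF1 binds inverted repeats of a short unit, the heat shock element. RefSeq promoters of GRCh38.p14, from 250 bases before to 50 bases after the start of a gene, were searched on both strands for TTC, GAA and TTC in a row, each separated by 2 free bases, a complete run of 3 units. They were at hand for 11 of the 12 HSP70 and HSP110 genes and 31 of the 35 co-chaperone genes. The element was found in 2 of the 11 and 3 of the 31, whereas 0.49% of all 35116 promoters held it. Of the promoters of genes called higher it was in 1 of 8 and 3 of 8, respectively. With the match in capitals, the sites shown are those of HSPA6 (chr1:161524459-161524485, at -74 from the start of the gene), CHORDC1 (chr11:90223085-90223111, the middle one of 3 overlapping matches) and DNAJB6 (chr7:157336866-157336892, matched on the opposite strand), each written 5′ to 3′ on the strand of the gene. They are shown because these genes rose and because the repeat can be read in them directly.
HSPA6: ggaaaggTTCGCGAAAGTTCgcggcgg
CHORDC1: cggaaaaTTCGCGAAGGTTCctgaaac
DNAJB6: gagccgaGAACCTTCGCGAAggtgggg
A match describes the sequence and does not show binding, and the other promoters may hold less regular repeats or elements outside this window.

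**Figure D2:**
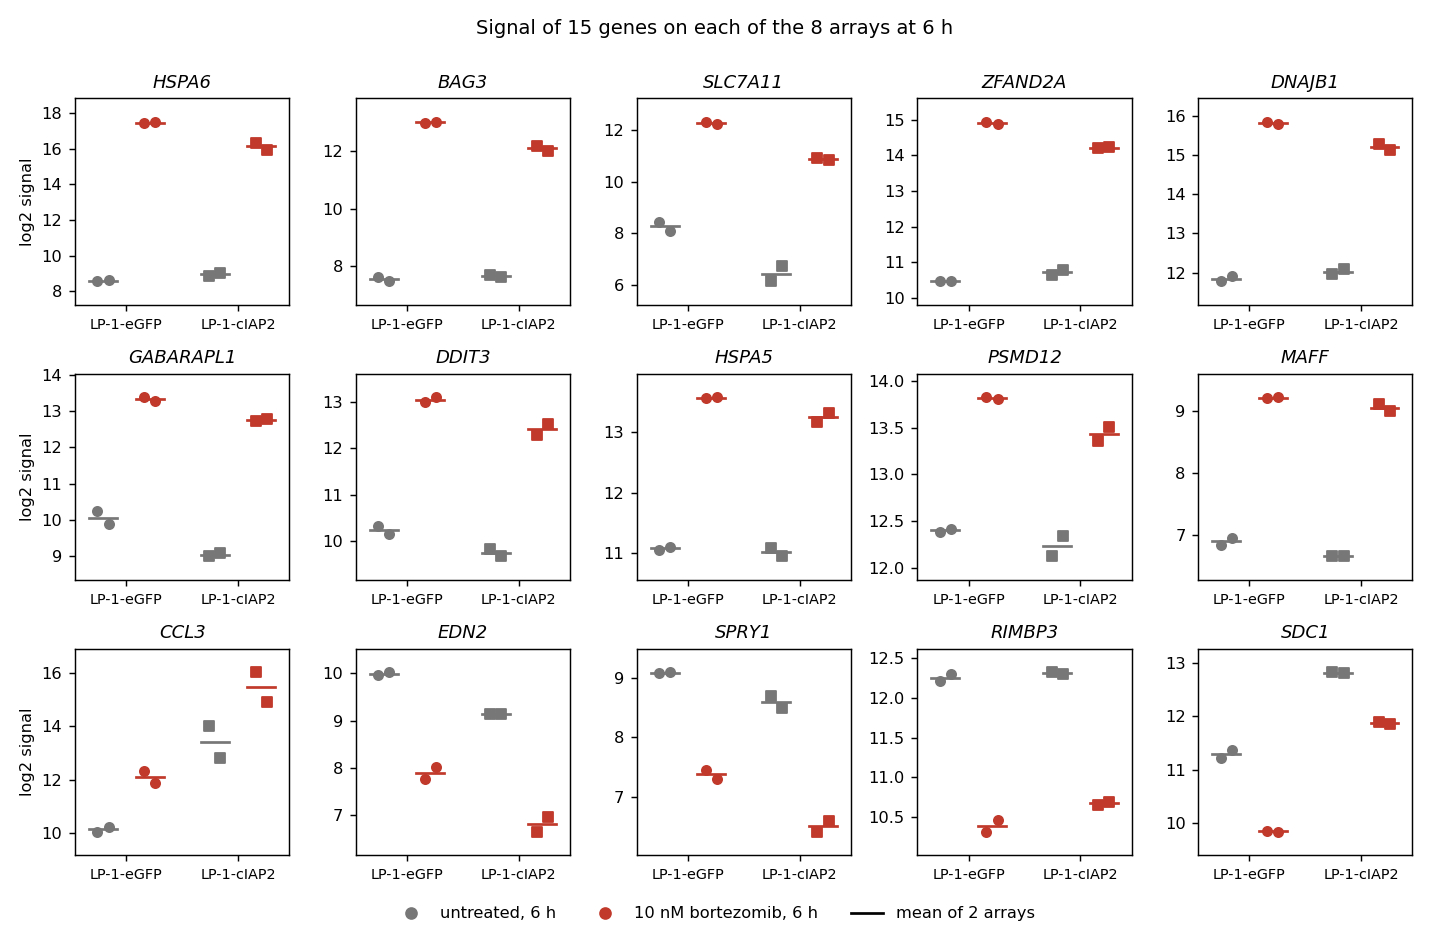
Log2 signal (vertical axes, each with its own range) of 15 genes on the 8 arrays of 6 h, with LP-1-eGFP as circles and LP-1-cIAP2-eGFP as squares, untreated in grey and 10 nM bortezomib in red. Bars are means of 2 arrays. The chaperone and stress genes rise in both lines, CCL3 starts and ends higher in LP-1-cIAP2-eGFP, and EDN2, SPRY1, RIMBP3 and SDC1 fall.

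The genes of the inhibited enzyme itself shifted upwards by small amounts. The proteasome consists of the 20S core, which cuts proteins, and the 19S particle, which recognizes ubiquitin and unfolds the substrate. Of 19 genes for 19S subunits all 19 had a positive change and 18 an adjusted p under 0.05, compared with 9.63% of all genes in that direction. Of the 19 genes 2 were called, against 1.6% of all genes called higher. The median was 0.63. PSMD12, a lid subunit, was measured at 12.39, 12.42, 12.13 and 12.35 on the untreated arrays and at 13.82, 13.80, 13.35 and 13.50 with bortezomib. It rose by 1.30 (standard error 0.084, adjusted p = 5.80e-04, limma), and PSMC6, an ATPase of the base, by 1.10 (standard error 0.052). All 14 genes of the 20S core were also positive, 11 with an adjusted p under 0.05, with a median of 0.44 and none over 2-fold. PSMB5, the subunit that binds bortezomib, was 14.75, 14.78, 14.51 and 14.71 untreated and 15.20, 15.33, 15.04 and 15.19 with the drug. Its arrays did not overlap, and the change was 0.50 (standard error 0.074, adjusted p = 0.00638). PSMB1 had 0.34 (adjusted p = 0.0163) and PSMB4 0.22 (adjusted p = 0.0505). The lists of other proteasome genes had medians near 0. Among 16 assembly factors and activators the median was -0.04, with 3 higher and 3 lower by adjusted p and none called, and among 12 immunoproteasome and peptide loading genes it was -0.06, with 2 lower by adjusted p. Of all genes 14.2% were lower by adjusted p. In these lists PSMG1, an assembly chaperone, had -0.25, PSME2 -0.11 and HLA-C -0.02. Both medians turned positive when the arrays were scaled to their 75th percentile, and so did PSME2 and HLA-C. PSMG1 stayed negative under other processing, between -0.26 and -0.0961, with an adjusted p up to 0.479 (limma).

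Regulators that bind antioxidant response elements were among the genes called. Of 8 CNC-bZIP and small MAF genes, 3 were called higher, against 1.6% of all genes, and the median was 0.66. MAFF, a small MAF protein that pairs with the CNC factors, lay between 6.66 and 6.96 on the untreated arrays and between 9.001 and 9.22 with bortezomib, a change of 2.35 (standard error 0.060, adjusted p = 1.43e-04, limma). BACH1, which represses such elements, rose by 1.23, and NFE2L1, the activator of proteasome genes, by 1.10 (standard error 0.104). Of 23 NRF2 target genes 4 were called higher (17.4%, against 1.6% of all genes) and 15 were higher by adjusted p (9.63% of all), with a median of 0.37. The cystine transporter gene SLC7A11 lay at 8.46 and 8.09 in untreated LP-1-eGFP and at 6.14 and 6.72 in untreated LP-1-cIAP2-eGFP. With bortezomib it was 12.31 and 12.25 in the former and 10.92 and 10.86 in the latter, so that LP-1-eGFP lay higher under either treatment, and the change was 4.23 (standard error 0.171, adjusted p = 2.21e-04). HMOX1, which degrades haem, rose by 2.49, OSGIN1 by 2.18 and SRXN1, which restores oxidized peroxiredoxins, by 1.53. SLC7A11 is a target of ATF4 as well. None of 10 metallothionein genes and related zinc genes was called or passed the adjusted p. Their median was 0.16, but 0.27 within slide 1 and -0.13 within slide 2, and from 0.0739 to 0.268 without 1 array, lowest without bortezomib replicate 2 of LP-1-cIAP2-eGFP and highest without untreated replicate 2 of LP-1-eGFP. In the ubiquitin, VCP and shuttle list, 2 of 22 were called (9.09%, against 1.6% of all genes higher), ZFAND2A and ZFAND5 (1.03), and 11 were higher by adjusted p (9.63% of all genes). ZFAND5 missed 2-fold without bortezomib replicate 1 of LP-1-eGFP or replicate 2 of untreated LP-1-eGFP, at 0.99 and 0.97.

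The antioxidant response element TGACNNNGC stood in 1 of 10 promoters of 20S genes, 5 of 18 of 19S genes and 5 of 16 of NRF2 target genes, against 13.3% of all promoters. Among the called genes with a promoter at hand it was in 1 of 2 of the 19S list and 0 of 2 of the NRF2 list, in which 4 genes were called. The metal response element TGCACNC or TGCGCNC stood in 5 of 6 promoters of the metallothionein and related zinc genes, against 29.6% of all. Both elements are short and common. The match of PSMD12, the 19S gene with the largest rise, lies at chr17:67366725-67366751, at -165 from the start of the gene, and is shown with the element in capitals.
PSMD12: gacaaaaccTGACGCTGCaggctggag

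Most of the listed genes of the ATF4 and CHOP pathway were called higher at 6 h. ATF4 is translated when the initiation factor eIF2 is phosphorylated, and it activates genes for amino acid supply and for the factor CHOP, encoded by DDIT3. Of 20 such genes 11 were called higher and none lower, against 1.6% and 0.999% of all genes, with a median of 1.32. The log2 signal of DDIT3 was 10.32, 10.15, 9.83 and 9.67 on the untreated arrays and 12.996, 13.10, 12.29 and 12.53 with bortezomib. The change was 2.73 (standard error 0.090, adjusted p = 1.75e-04, limma). CHAC1, which degrades glutathione, lay between 10.02 and 11.46 untreated and between 13.53 and 14.68 with bortezomib. It rose by 3.35 on its brighter probe and 3.60 on the other, and SESN2, an inhibitor of mTORC1, rose by 3.25 (standard error 0.085, adjusted p = 1.43e-04). DDIT4, another inhibitor of mTORC1, rose by 2.42, STC2 by 2.15 and INHBE by 2.84, the last with 3 of 4 untreated arrays above background. The median of the list was 0.71 within slide 1 and 1.62 within slide 2.

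Genes for the synthesis, uptake and charging of amino acids had smaller changes. Of 29 genes 9 were called higher, against 1.6% of all genes, none was called lower and 24 were higher by adjusted p (9.63% of all), with a median of 0.68. SLC7A5, the light chain of a transporter of large neutral amino acids, was 13.17, 13.14, 12.48 and 12.42 untreated and 14.92, 15.02, 14.09 and 14.12 with bortezomib. It rose by 1.74 (standard error 0.064, adjusted p = 1.76e-04, limma). Its heavy chain SLC3A2 rose by 1.31, the glycine transporter gene SLC6A9 by 1.43, the neutral amino acid transporter genes SLC1A4 and SLC1A5 by 1.36 and 1.29, and GPT2, a mitochondrial alanine aminotransferase, by 1.39. The CEBP-ATF response element TGATGNAA stood in 9 of 22 promoters of this list and in 2 of 17 of the ATF4 and CHOP list, against 3.62% of all promoters. Promoters were at hand for 7 of the 9 called genes of this list and 9 of the 11 of the other, and 1 of each held it. The match of CHAC1 (chr15:40953252-40953279, at -209 from the start of the gene) reads on the opposite strand and is in capitals.
CHAC1: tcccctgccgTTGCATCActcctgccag

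Chaperone genes of the endoplasmic reticulum were also called. Of 30 ER chaperone and ERAD genes, the latter serving the export of misfolded proteins to the proteasome, 10 were called higher and none lower, against 1.6% and 0.999% of all genes. By adjusted p 25 were higher (9.63% of all genes), and the median was 0.70. HSPA5, the HSP70 of the ER known as BiP, lay between 10.95 and 11.11 on the untreated arrays and at 13.57, 13.58, 13.18 and 13.32 with bortezomib. It rose by 2.36 (standard error 0.082, adjusted p = 1.76e-04, limma). DNAJB9, a partner of BiP, rose by 1.68, HERPUD1, which organizes the ERAD machinery, by 1.62, SEC24D of the vesicle coat by 1.49, the disulfide isomerase gene PDIA4 by 1.40 and CRELD2 by 1.34. XBP1, the factor that drives ER expansion in plasma cells, moved the other way. It was measured at 17.52, 17.44, 17.34 and 17.21 untreated and at 17.06, 16.998, 16.88 and 16.78 with bortezomib, a fall of 0.45 (standard error 0.063, adjusted p = 0.00533) that did not reach 2-fold. Under other processing the XBP1 change lay between -0.47 and -0.23, with an adjusted p up to 0.0672 (limma).

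Of 29 autophagy genes 2 were called (6.9%, against 1.6% of all genes higher), GABARAPL1 and SQSTM1, and 13 were higher by adjusted p (9.63% of all genes), with a median of 0.27. GABARAPL1, a ubiquitin-like protein of the autophagosome membrane, lay at 10.23 and 9.88 in untreated LP-1-eGFP and 8.99 and 9.07 in untreated LP-1-cIAP2-eGFP, and between 12.74 and 13.38 with bortezomib. The change was 3.51 (standard error 0.125, adjusted p = 1.76e-04, limma). A second probe had 3.15. SQSTM1, the receptor p62 that carries ubiquitinated cargo into autophagosomes, rose by 1.83 (standard error 0.098). Among 18 microtubule, actin and aggresome genes, TUBB2A (1.03) and TUBB3 (1.22) were called (11.1%, against 1.6% of all genes higher) and the median was 0.21. TUBB3 was fitted on 7 arrays, since its spot on bortezomib replicate 1 of LP-1-cIAP2-eGFP had been marked as an outlier, and it was not called without the other replicate of that condition. The second TUBB2A probe had 0.43, and the brighter one was not called without bortezomib replicate 1 of LP-1-eGFP or replicate 2 of untreated LP-1-eGFP.

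Of 21 immediate-early and AP-1 genes 2 (9.52%) were called higher, ATF3 and JUN, against 1.6% of all genes. The median was 0.45, and it lay between 0.17 and 0.59 under other processing. ATF3, a stress-induced repressor, was 9.75, 9.75, 10.33 and 9.72 untreated and 13.27, 13.04, 13.41 and 12.46 with bortezomib. It rose by 3.16 (standard error 0.252, adjusted p = 9.60e-04, limma), while its other 3 probes ranged from -0.05 to 3.098. JUN was 9.39 and 9.06 in untreated LP-1-eGFP and 11.71 and 10.52 in untreated LP-1-cIAP2-eGFP. With bortezomib it was 11.58 and 11.41 in LP-1-eGFP and 13.14 and 12.59 in LP-1-cIAP2-eGFP, so that the treatments overlapped between the lines but not within them, and the change was 2.01 (standard error 0.293). Of 15 MAPK phosphatase and feedback genes 1 was called higher (6.67%) and 2 lower, against 1.6% and 0.999% of all genes, with a median of 0.15, which was -0.10 within slide 1. Within LP-1-eGFP this median was 0.09 and within LP-1-cIAP2-eGFP 0.12. DUSP5, a phosphatase of nuclear ERK, was above background on 2 of 4 untreated arrays and all 4 bortezomib arrays and rose by 3.13, or by 1.81 with normexp. SPRY1, an inhibitor of receptor tyrosine kinase signalling, was 9.08, 9.09, 8.70 and 8.49 untreated and 7.44, 7.30, 6.41 and 6.59 with bortezomib, a fall of 1.91 (standard error 0.109, adjusted p = 4.70e-04). DUSP7 fell by 1.34 (adjusted p = 0.0404), but by 0.35 with normexp, a call that was lost under 12 of 18 alternatives.

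Of 30 NF-kB subunits, inhibitors and targets, the chemokine genes CCL3 and CCL4 were called higher (6.67%, against 1.6% of all genes), none was called lower, and the median was 0.11, or 0.0731 without untreated replicate 1 of LP-1-cIAP2-eGFP. CCL3 lay at 10.04 and 10.22 in untreated LP-1-eGFP and at 14.03 and 12.79 in untreated LP-1-cIAP2-eGFP. With bortezomib it was 12.32 and 11.88 in the former and 16.03 and 14.91 in the latter, a rise of 2.01 (standard error 0.348, adjusted p = 0.0112, limma). The CCL3L3 probes, which may share RNA with CCL3, rose by 2.07 and 2.09. The call of the former was lost without replicate 1 of LP-1-eGFP of either treatment, with a highest adjusted p of 0.0540 (limma). CCL4 was 5.24, 5.77, 8.60 and 7.97 untreated and 6.30, 6.76, 11.93 and 11.02 with bortezomib, so that the lines differed more than the treatments. It rose by 2.11 (standard error 0.504, adjusted p = 0.0338), and this call was lost without any one of 6 of the 8 arrays, with a highest adjusted p of 0.0886 (limma). It was also lost with replicate number as a block or without the filter on signal, at up to 0.0685. A second CCL4 probe rose by 2.50 (adjusted p = 0.0171, limma), and its call was lost without replicate 1 of untreated LP-1-eGFP or of untreated LP-1-cIAP2-eGFP. BIRC3 itself was 13.57 and 13.67 in untreated LP-1-eGFP and 11.92 and 12.13 in untreated LP-1-cIAP2-eGFP, and 13.85, 13.83, 12.51 and 12.79 with bortezomib. Its probe lies in a part of the transcript that the vector does not carry, as the study's methods state, and so it reads the cells' own gene. The change of 0.42 (standard error 0.117) had an adjusted p of 0.0543.

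Among the genes of apoptosis, 2 of 11 pro-apoptotic BCL2 family members were called higher (18.2%). None of 9 pro-survival BCL2 and IAP genes was, against 1.6% of all genes, and the difference between these lists was not tested. PMAIP1, which encodes the MCL1 antagonist NOXA, was 11.06, 10.45, 11.27 and 10.32 untreated and 13.23, 12.78, 12.81 and 12.20 with bortezomib. It rose by 1.98 (standard error 0.294, adjusted p = 0.00654, limma), and BBC3, which encodes PUMA, by 1.37 (standard error 0.077, adjusted p = 4.59e-04). The medians of these lists were 0.23 and 0.29. Without untreated replicate 1 of LP-1-cIAP2-eGFP the latter was 0.0429, without its bortezomib replicate 1 it was 0.147, and with normexp 0.0970. The former was 0.373 without untreated replicate 2 of LP-1-eGFP. MCL1 had 0.30 (adjusted p = 0.0645) and BIRC5, which encodes survivin, -0.42 (adjusted p = 0.00682). Under other processing BIRC5 lay between -0.45 and -0.26, with an adjusted p up to 0.128 (limma). In the death receptor pathway 1 of 19 genes was called higher (5.26%, against 1.6% of all genes), with a median of 0.17. It was the TNF receptor gene TNFRSF1A, at 1.30, detected on 3 of 4 arrays of each treatment, and with normexp it had 0.75 and was not called. The adaptor gene FADD had 0.43 (adjusted p = 0.00431) and CYCS -0.10. Of 21 p53-linked and CDK inhibitor genes 2 were called higher, CDKN1A and GADD45A (9.52%, against 1.6% of all genes, and 1 gene with normexp), with a median of 0.13. CDKN1A, which encodes p21, was not above background on any untreated array and was on 3 of the 4 bortezomib arrays. It was thus tested only through the arrays where it is high. The 4 bortezomib arrays were averaged at their measured signal, and untreated signals below the lowest one above background were raised to it. CDKN1A was then 2.21-fold higher, which is not a strict lower bound, and with normexp its change was 0.56 and not called. GADD45A rose by 1.58 (standard error 0.198). Of 28 interferon-stimulated genes 3 were called higher (against 1.6%), IFI44 at 2.95 (1.27 with normexp) with 2 of 4 untreated arrays above background, XAF1 at 1.45 and ISG20 at 1.31, and the median was 0.13. Within slide 1 the median of this list was -0.21 and within slide 2 it was 0.70, comparisons that also carry the difference between lines. Within LP-1-eGFP it was 0.12 and within LP-1-cIAP2-eGFP 0.22.

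Apart from SPRY1, the largest falls were of genes outside the lists. A rule that asked for a gene symbol, a call, no overlap within either line and detection on all 4 untreated arrays left 156 probes, of which the 15 with the largest falls are SPRY1, described above, and those named here. EDN2, which encodes the vasoactive peptide endothelin 2, was 9.96 and 10.02 in untreated LP-1-eGFP and 9.14 and 9.13 in untreated LP-1-cIAP2-eGFP. With bortezomib it was 7.77 and 8.01 in LP-1-eGFP and 6.65 and 6.96 in LP-1-cIAP2-eGFP. No array overlapped between the treatments, and the change was -2.21 (standard error 0.102, adjusted p = 3.35e-04, limma). RIMBP3 fell by 1.76, from between 12.22 and 12.32 to between 10.31 and 10.69 (standard error 0.075, adjusted p = 2.72e-04). TCHH, known as a structural protein of the hair follicle, fell by 1.83, and its second probe by 1.37. VXN fell by 1.77, MAGI2, a scaffold protein of cell junctions, by 1.65 and RASL11B, a small GTPase, by 1.70. FZD8, a receptor of Wnt ligands, fell by 1.80, TRIM49 by 1.73, NEURL1B, a ubiquitin ligase, by 1.71, ACOXL by 1.98 and CDS1, an enzyme of phospholipid synthesis, by 1.67, and these 5 genes were above background on 1 or 2 of the 4 bortezomib arrays. NECTIN3-AS1, SRP14-DT and UACA were not above background on any bortezomib array. With bortezomib signals below the lowest one above background raised to it, they were 1.93-fold, 1.72-fold and 1.60-fold lower. These values are not strict lower bounds. These 3 were tested only through the untreated arrays, where they are high. The calls of ACOXL, SRP14-DT, NEURL1B, CDS1 and UACA were each lost without at least 1 array. With normexp, these and NECTIN3-AS1 (-0.55), FZD8 (-0.80), TRIM49 (-0.94) and RASL11B (-0.83) were not called. SRP14-DT has 6 probes, and its brightest one changed by -0.65. The brighter CDS1 probe changed by -0.86, and neither of these was called. The second MAGI2 probe had -0.36 and the second NEURL1B probe -0.04.

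Among the identity genes of myeloma cells, SDC1 was called lower. Of 18 myeloma surface antigens it was the one called (0.999% of all genes were called lower), 6 were lower and none higher by adjusted p, compared with 14.2% of all genes lower, and the median was -0.25. Within slide 1 it was 0.11 and within slide 2 -0.50, comparisons that also carry the difference between lines. Within LP-1-eGFP it was -0.10 and within LP-1-cIAP2-eGFP -0.27. SDC1 encodes CD138, the surface proteoglycan by which plasma cells are recognized. Its log2 signal was 11.22 and 11.37 in untreated LP-1-eGFP and 12.82 and 12.82 in untreated LP-1-cIAP2-eGFP, and it was 9.86, 9.85, 11.90 and 11.86 with bortezomib. Each line fell, by 1.19 in all (standard error 0.115, adjusted p = 0.00162, limma), and untreated LP-1-eGFP still lay below treated LP-1-cIAP2-eGFP. CXCR4, the receptor that holds plasma cells in the bone marrow, had -0.69 (adjusted p = 0.00338) and ITGB7 -0.10. Of 18 plasma cell and myeloma transcription factors 6 were lower by adjusted p (14.2% of all genes) and 1 was called higher (5.56%, against 1.6% of all genes), with a median of -0.15. The called gene was BCL6, a repressor of plasma cell differentiation, at 1.26, and it was not called without either bortezomib array of LP-1-eGFP or with normexp. MAF had -0.27 (adjusted p = 0.0281). Under other processing it lay between -0.28 and -0.11, with an adjusted p up to 0.365 (limma).

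In the remaining lists few or no genes were called at 6 h, and those that were not are given as values. None of 52 cytosolic ribosomal protein genes was called or passed the adjusted p, and the median was -0.03, with RPL13 at -0.02 and RPS2 at -0.01. The RPL13 signal was 18.957 on every LP-1-eGFP array. Quantile normalization gives probes of equal rank the same value, so this does not show an unchanged gene. Of 30 ribosome biogenesis genes (median -0.12) NPM1 had 0.02 and FBL -0.17, and of 36 respiratory chain genes (median -0.06) NDUFV2 had -0.25 and COX6C -0.01. The 30 genes of G2/M and mitosis had a median of -0.29, with 14 lower by adjusted p, compared with 14.2% of all genes, and none called. PTTG1 had -0.24 and CKS2 0.22. For 28 genes of G1/S and DNA replication the median was -0.12, with 9 lower and 3 higher by adjusted p, and TYMS had -0.29 and MCM7 -0.07. Replication-dependent histone genes (50 tested, median -0.12) included H4C3 at -0.14 and H1-2 at -0.08, and probes of histone genes can share RNA between copies. The histone median was -0.25 within slide 1 and 0.01 within slide 2, -0.20 without untreated replicate 2 of LP-1-cIAP2-eGFP and -0.0718 without untreated replicate 1 of that line. Within LP-1-eGFP it was -0.20 and within LP-1-cIAP2-eGFP -0.05. Of 13 MHC class II genes (median 0.07) HLA-DPA1 had 0.00 and HLA-DPB1 0.12, and the median was -0.65 within slide 1 and 0.72 within slide 2. A comparison within a slide also carries the difference between lines. Within LP-1-eGFP the MHC class II median was -0.02 and within LP-1-cIAP2-eGFP 0.13. In the cholesterol and fatty acid list STARD4, a sterol carrier, rose by 1.21 (3.33% of the list, against 1.6% of all genes called higher), while FDPS had -0.09 and EBP -0.24, with a median of -0.03 over 30 genes. Of 31 KRAB zinc finger genes (median 0.01) ZNF10 was called at 1.17 (3.23% of the list, and 0.98 and not called with normexp) and ZNF195 and ZNF37A had 0.53 and 0.13, and of 23 hypoxia and glycolysis genes (median -0.01) GAPDH had 0.11 and LDHA -0.19. Without 1 array the medians ran from -0.18 to -0.0794 for the G1/S list, 0.0191 to 0.0901 for MHC class II, -0.0784 to -0.0251 for cholesterol and fatty acids, -0.0385 to 0.0404 for KRAB zinc fingers and -0.0383 to 0.0453 for hypoxia. The metallothionein genes MT2A and MT1A had 0.30 and 0.15. With the arrays scaled to their 75th percentile, the medians of the ribosomal protein, respiratory chain, G1/S, and cholesterol and fatty acid lists became positive, and that of the hypoxia list did so in 3 alternatives. The KRAB median changed sign in 2.

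**Figure D3:**
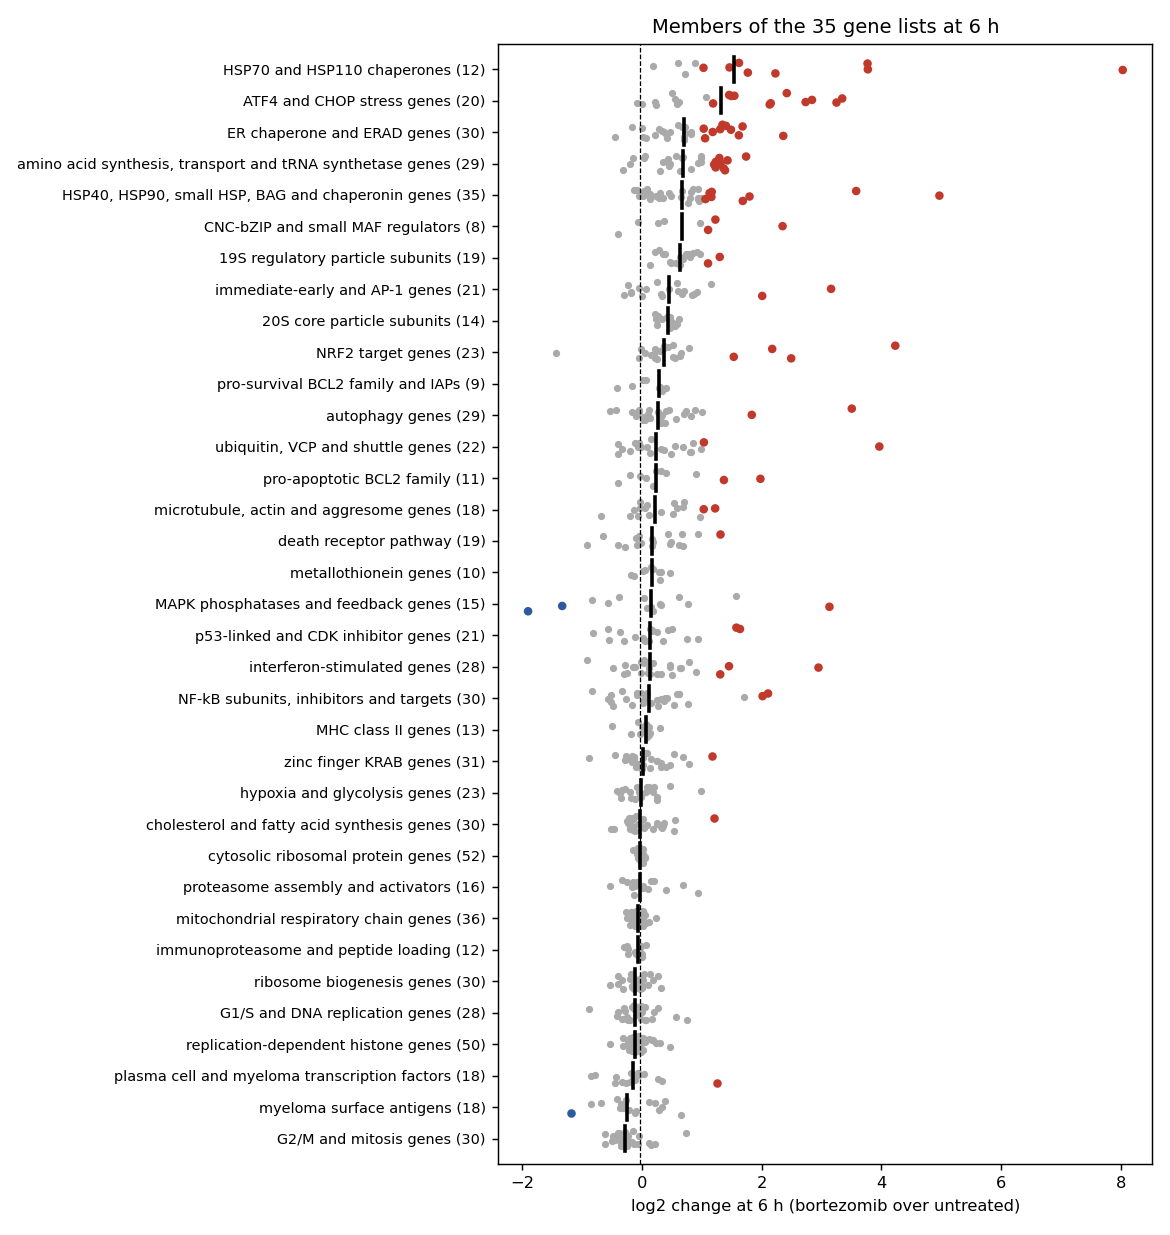
Log2 change at 6 h (horizontal axis) of every tested member of the 35 gene lists, ordered by the list median (black bar), with the number of members in brackets. Called rises are red, called falls blue and other members grey, and the dashed line is the median of all genes (-0.03). The chaperone, ATF4 and ER lists lie to the right, and the G2/M list has the lowest median (-0.29).

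Whether the lines responded differently at 6 h was tested as the difference of their changes. The bortezomib arrays of LP-1-cIAP2-eGFP lay on slide 1 and those of LP-1-eGFP on slide 2, while each line had an untreated array on either slide. A difference between slides therefore enters each line's change and the difference between the lines. In LP-1-eGFP alone 748 probes (2.34%) were called, 429 higher (1.34%) and 319 lower (0.996%). For the cIAP2 line alone the count was 604 (1.89%), 364 higher (1.14%) and 240 lower (0.749%). In the same direction, 345 probes were called in each, or 46.1% of the former and 57.1% of the latter, and 6 further probes, none with a symbol, were called in opposite directions. These separate counts rest on 2 arrays a treatment and fell to 24 without bortezomib replicate 1 of LP-1-eGFP and to 151 without untreated replicate 1 of the cIAP2 line. With slide as a block they fell to 130 in LP-1-eGFP and 78 in the cIAP2 line. The difference itself had an adjusted p under 0.05 for 1 of 32027 probes (0.00312%, limma), and 1951 had an unadjusted p under 0.05. It was DGAT2L6, a dim probe that was above background on the 2 untreated LP-1-cIAP2-eGFP arrays, at 6.90 and 6.69, and on none of the other 6, where it lay between 2.52 and 2.57. Such signals give only an upper limit, so neither the size of this difference nor its p can be relied on, and the probe was tested through the 2 arrays where it is high. No difference was called when any one of 4 of the 8 arrays was left out, while 7 were called without bortezomib replicate 2 of LP-1-cIAP2-eGFP and 6 without replicate 1 of untreated LP-1-cIAP2-eGFP. The change of HSPA6 was 8.88 in the control line and 7.19 in LP-1-cIAP2-eGFP, a difference of -1.68 (standard error 0.211, adjusted p = 0.367, limma). BAG3 changed by 5.48 and 4.46 and ZFAND2A by 4.43 and 3.50. CCL4 had 1.02 and 3.19, a difference of 2.17 (standard error 0.578, adjusted p = 0.688), and HERPUD1 1.23 and 2.01. The medians of the HSP70 list were 1.62 and 1.46, those of the ATF4 and CHOP list 1.58 and 1.05, and those of the 19S list 0.66 and 0.64. No member of any list passed the test of the difference. A miss of this test does not show that the lines responded alike.

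**Figure D4:**
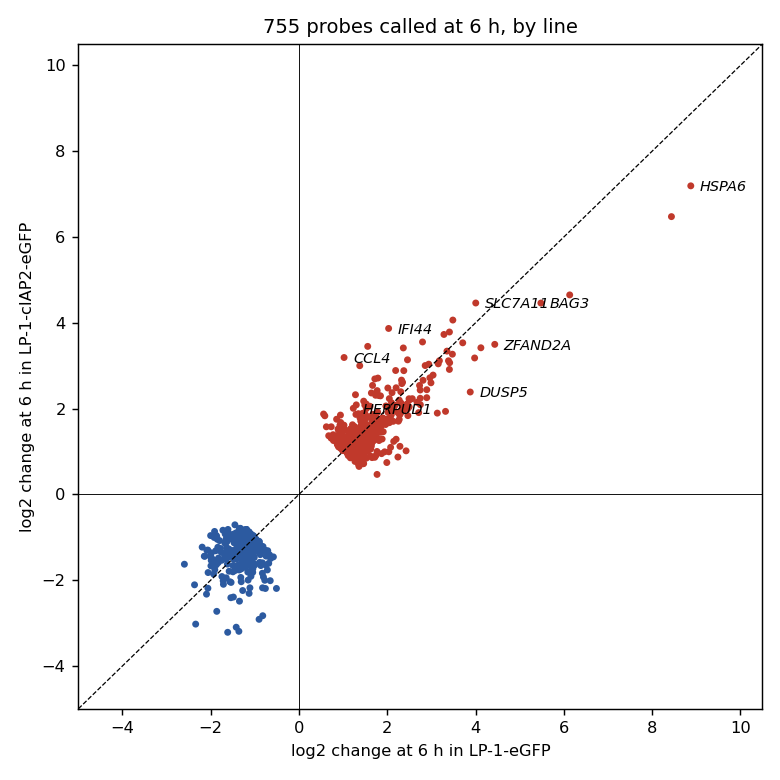
Log2 change at 6 h in LP-1-cIAP2-eGFP (vertical axis) against that in LP-1-eGFP (horizontal axis) for the 755 probes called in both lines together, rises in red and falls in blue. The dashed line marks equal changes. Every point lies above 0 or below 0 on both axes, which follows in part from how the probes were called, and HSPA6 and CCL4 are examples to either side of the line.

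The 24 h arrays were used to see which early changes lasted. Unlike at 6 h, the treatments were unequally divided between the slides. All 24 h bortezomib arrays except replicate 2 of LP-1-eGFP lay on slide 1. All 24 h untreated arrays except replicate 1 of LP-1-cIAP2-eGFP lay on slide 2. A difference between slides therefore enters in part the change at 24 h and its difference from 6 h. In the fit of all 16 arrays, 5791 probes (17.2%) were called at 24 h, 2162 higher (6.41%) and 3629 lower (10.8%). The change at 24 h differed from that at 6 h for 2616 probes (7.76%), 917 upwards (2.72%) and 1699 downwards (5.04%). With slide as a block it did so for 2135 probes, 806 upwards and 1329 downwards. The 24 h bortezomib array of LP-1-cIAP2-eGFP replicate 1 was faint, with a median log2 signal of 3.18 and 35.5% of gene spots above background. Without it the difference was called for 3129 probes, 1313 upwards and 1816 downwards, and without the other replicate of its condition for 6759. Of the 255 genes higher at 6 h, 202 were also called higher at 24 h and none lower, and of the 159 lower at 6 h, 118 were called lower at 24 h and none higher. Without the faint array the counts were 211 and 110, with 1 of the 158 tested lower genes called higher. The shares of all genes called at 24 h were 7.43% higher and 12.7% lower.

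Some early rises had ended by 24 h. SLC7A5 changed by 1.74 at 6 h and -0.06 at 24 h, a difference of -1.79 (adjusted p = 0.00212, limma), SLC1A4 by 1.36 and -0.36 (difference -1.73, adjusted p = 5.16e-04) and GPT2 by 1.39 and -0.17 (adjusted p of the difference 0.0134). Of the 29 amino acid genes 6 were called lower at 24 h than at 6 h in this sense (5 without the faint array), and the median fell from 0.68 to 0.22. Among all genes 6.51% were called in this direction and 3.58% in the other. The ER isomerase gene PDIA4 went from 1.40 to 0.14 and HSPA4L from 1.62 to 0.12, whereas HSPA5 had 2.36 and 2.44 and SLC3A2 1.31 at both times. In the list of 12 HSP70 and HSP110 genes 1 was called lower at 24 h than at 6 h, HSPA4L, and 3 higher. The latter were HSPA6, from 8.03 to 9.37, HSPA1B, from 3.77 to 5.24, and HSPA12A, from 1.77 to 2.89. CHAC1 went from 3.35 to 0.86, but that difference did not pass the test (adjusted p = 0.126). RIMBP3, which had fallen by 1.76 at 6 h, was at -0.01 at 24 h (difference 1.75, adjusted p = 2.75e-04).

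Other early changes grew. Among probes called at both comparisons, the largest gains were of CCL4, from 2.11 to 7.72, CCL3L3, from 2.07 to 6.29, and CCL3, from 2.01 to 5.70, with adjusted p of the differences of 1.33e-04, 0.00224 and 0.00497 (limma). MAFF went from 2.35 to 3.79, GABARAPL1 from 3.51 to 4.84, SQSTM1 from 1.83 to 2.87, ATF3 from 3.16 to 5.67, JUN from 2.01 to 4.15, GADD45A from 1.58 to 3.68 and PMAIP1 from 1.98 to 4.08, each with an adjusted p of the difference under 0.05. At 24 h the 19S list had a median of 0.96 and the 20S list 0.73, and PSMB5 had 0.85. The difference between the times was called for 1 of the 19 genes of the former and none of the 14 of the latter, PSMB5 included, against 3.58% of all genes. Among the larger further falls were those of the chemokine receptor gene CX3CR1, from -1.21 to -4.75, TESMIN, from -1.07 to -4.06, POU3F2, a transcription factor, from -1.31 to -4.04, and OR13A1, an olfactory receptor gene, from -1.22 to -3.81. TESMIN was fitted on 7 arrays at 6 h after 1 outlier spot was dropped, and its brighter probe changed by -0.78 and was not called. The 6 h call of TESMIN was lost under 5 alternatives, with a highest adjusted p of 0.310 (limma), and that of CX3CR1 in the fit of all 16 arrays (adjusted p = 0.174, limma) and with normexp. OR13A1 had -0.89 with normexp, not called, and -0.40 on its second probe. SDC1 went from -1.19 to -2.46 (adjusted p of the difference 0.00139).

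Members of some other lists were lower at 24 h than at 6 h. Of all genes 6.51% were called lower in this sense and 3.58% higher. Without the faint array 1021 of 15865 genes were called lower and 785 higher. Of 13 MHC class II genes 10 were lower at 24 h than at 6 h, with a median of -1.24 after 0.07, and 6 without the faint array, at -1.03. Of 50 histone genes 24 were lower in this way, with a median of -1.12, and 27 without the faint array. Of 30 genes of G2/M and mitosis 14 were lower, with a median of -1.22, and 11 without it. BIRC5 went from -0.42 to -1.94, XBP1 from -0.45 to -1.46, CXCR4 from -0.69 to -1.95 and CYCS from -0.10 to -1.31, and each difference had an adjusted p under 0.001 (limma). Interferon-stimulated genes rose after 6 h in 7 of 28 cases and fell in 2 (9 and 4 without the faint array), against 3.58% and 6.51% of all genes, with a median of 0.57. In the autophagy list 6 of 29 rose and none fell. The ribosomal protein genes were at a median of -0.01 at 24 h, with none of 52 called at either time.

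**Figure D5:**
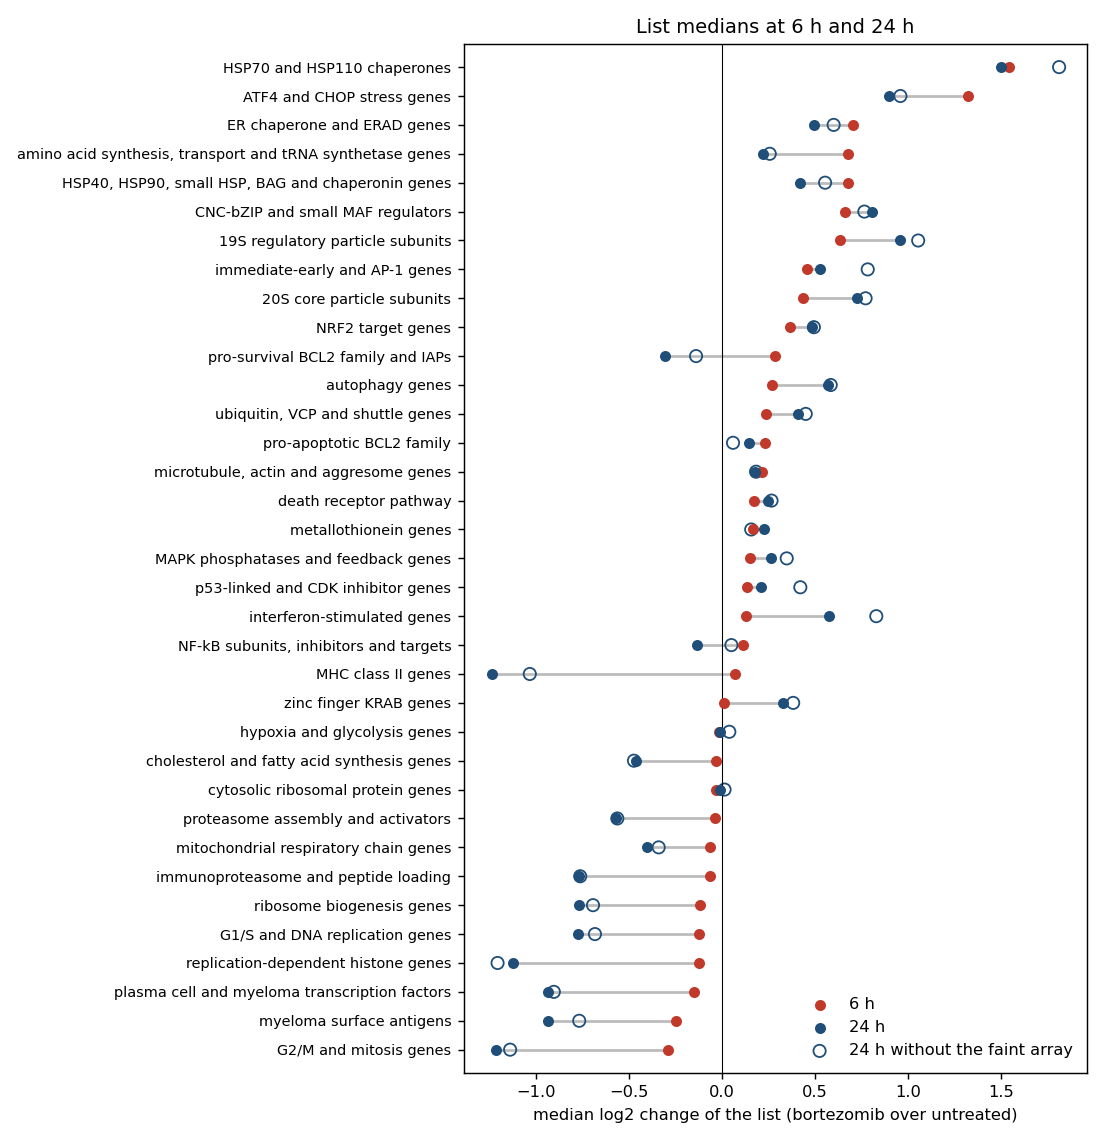
Median log2 change with bortezomib (horizontal axis) of each of the 35 gene lists at 6 h (red) and 24 h (blue), joined by grey lines, with the 24 h median without the faint array as an open circle. The amino acid list falls back from 0.68 to 0.22, the 19S list lies at 0.96 at 24 h, and the MHC class II, histone and G2/M lists drop below -1 at 24 h alone.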

How the data were processed

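Single-colour Agilent arrays of total RNA were analysed. Per the file headers, the deposited intensity values (processed signal) had been background-subtracted and detrended by Agilent Feature Extraction 10.7.3.1 and were not normalized between arrays. The authors also deposited log2 values, quantile normalized in GeneSpring and centred on each probe, which served as an alternative. Spots marked as outliers were dropped, spots of a probe were averaged, followed by quantile normalization over the 16 arrays in limma 3.58.1 (R 4.3.3). A probe was tested if both replicates of any of the 4 conditions at 6 h had it well above background. The model had line and treatment as terms on 8 arrays. The lines were compared with condition means on these arrays, and 24 h with 6 h on all 16. Symbols came from RefSeq accessions of GRCh38.p14 for 28174 probes (55.7%), and the brightest tested probe of a gene is reported. The fits were tested on simulated data.

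The members and the 35 gene lists were chosen with earlier results of these data known. Named genes are up to 6 called members of each list by size (and the 2 brightest where fewer than 2 were called), the 15 largest rises and falls of probes with a symbol detected on all arrays of the brighter treatment without overlap within a line, the called difference between lines, the 5 largest differences between times in each direction among probes called at 6 h, PSMB5 and BIRC3. Replicate numbers were not treated as pairs. A few genes are not reported here.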

Additional observations from a re-analysis of the deposited data

Results flagged for a closer look

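With 4 arrays a treatment, the gap between an extreme array and its nearest neighbour was compared with the range of the group (Dixon's ratio, against its critical value for 4 values) for the signals of the named probes and for 2 array-wide measures. Of 256 such groups 5 (1.95%) exceeded it, and the rate of about 1 in 20 by chance holds for arrays of one kind, whereas each of these groups held arrays of both lines. The ratio was 0.941 for ATF3 on replicate 1 of untreated LP-1-cIAP2-eGFP, at 10.33 against 9.72 to 9.75 on the other untreated arrays. It was 0.841 for HSPH1, 0.845 for DUSP7 and 0.920 for OR13A1, each with the lowest signal on bortezomib replicate 1 of LP-1-cIAP2-eGFP. That array also had the smallest share of spots above background among the 8 (49.0%), and its part in these values was not tested. For ACOXL the ratio was 0.840, from bortezomib replicate 2 of LP-1-eGFP at 4.05.

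The fitted difference between the lines in the 6 h response of DGAT2L6 was -4.24 (log2, LP-1-cIAP2-eGFP minus LP-1-eGFP). It rests on 2 untreated arrays and on 6 that were not above background, and so its size is not a measured one. Among probes called at 6 h, the difference between the response at 24 h and that at 6 h was 5.61 and 5.35 for the CCL4 probes, 4.22 and 4.16 for the CCL3L3 probes and 3.69 for CCL3. It was -3.54 for CX3CR1, -3.03 for TESMIN, -2.73 for POU3F2 and -2.60 for OR13A1. Without the faint array of 24 h these values became 5.61, 5.40, 4.25, 4.02, 3.69, -2.89, -2.92, -2.63 and -2.72.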

How the results depend on the processing

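The counts of called probes rest on 2 replicates of a condition and include dim probes, and they changed with the processing. In both lines together 755 probes were called, against 357 after normexp, 502 with probes above background on all arrays of the fit, and 5808 by adjusted p alone. Leaving out 1 array gave 643 to 874. In LP-1-eGFP the counts were 464 with normexp, 130 with slide as a block, 379 with means of all 16 arrays and 2751 by adjusted p alone, and 24 to 773 without 1 array. In LP-1-cIAP2-eGFP they were 337, 78, 251 and 1886, and 391 with array weights and 151 to 845 without 1 array. The difference between the lines was called for 0 probes with 75th percentile scaling, the stricter filter, the replicate block or the slide block, for 2 with array weights and for 0 to 7 without 1 array. For 24 h against 6 h the count was 1676 with the stricter filter, 5038 by adjusted p alone and 2106 to 6759 without 1 array. The cause of these changes was not tested, apart from the fewer probes or arrays that some of them use.

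The deviations of same-numbered replicates correlated weakly (from 0.003 to 0.18), not above 0.1 in every pair, and the numbers were not taken as pairs. The replicate block ended the call of CCL4. With the replicate block the counts were 775 in both lines, 817 in LP-1-eGFP, 623 in LP-1-cIAP2-eGFP and 2864 for 24 h against 6 h.

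Of the named genes that were called none reversed, and genes near 0 that were not called did. With 75th percentile scaling they were PSME2 at 0.10, HLA-C at 0.20, CYCS at 0.0316, MCM7 at 0.12, H4C3 at 0.11, H1-2 at 0.11, FDPS at 0.10, FBL at 0.0696, RPL13 at 0.20, RPS2 at 0.18, COX6C at 0.22, ITGB7 at 0.13, HLA-DPA1 at 0.16 and LDHA at 0.0405. With normexp they were RPL13 at 0.00801, RPS2 at 0.00902 and HLA-DPA1 at 0.0081. Without 1 array the values ran from -0.0398 to 0.00683 for HLA-C, -0.16 to 2.72e-04 for H1-2, -0.0168 to 0.0588 for NPM1, -0.0388 to 3.97e-04 for RPL13, -0.0387 to 0.0196 for RPS2, -0.0407 to 0.0158 for COX6C and -0.0609 to 0.0461 for HLA-DPA1. Some list medians also varied with the processing. They ran from -0.17 to -0.0505 for plasma cell and myeloma transcription factors and from -0.12 to -0.0146 for ribosome biogenesis. For autophagy genes the range was 0.15 to 0.33, and for microtubule, actin and aggresome genes 0.21 to 0.36.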
